A study of Homo sapiens with 12 samples.

Results

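The EGFR family is described here by 10 genes, chosen by name: the receptor genes EGFR, ERBB2 and ERBB3, the ligand genes AREG, EREG, HBEGF, TGFA, BTC and EPGN, and ERRFI1, the gene of an inhibitor of the receptors. All 10 were found in both deposited tables of gene counts, among 30984 genes listed for KYSE30 and 78691 for U138MG, with 30358 identifiers in both. The question was how the RNA of the receptors, of the ligands and of the inhibitor changed when the lipid enzyme PTDSS1 was inhibited, and whether both lines answered alike. KYSE30 is an esophageal squamous cell carcinoma line, and U138MG is labelled a glioblastoma line from brain. Cells of wild-type genotype received either DMSO, the vehicle, or 100 nM of PTDSS1i, a small-molecule inhibitor of PTDSS1, for 48 h, with 3 libraries in each of the 4 groups, 12 in all. Each line stands for its cancer alone, as 1 established cell line in culture.

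The receptors of this family are tyrosine kinases at the cell surface that pair with each other when a ligand binds. EGFR binds all 6 of the ligands listed here, ERBB2 has no known ligand and serves as a partner, and ERBB3 binds neuregulins and signals through its partners because its own kinase is nearly inactive. The ligands are made as membrane-anchored precursors and are cut free by metalloproteases. Paired receptors activate the ERK and PI3K routes, and ERRFI1 (also called MIG6) is induced by that signaling and binds the EGFR kinase to switch it off. EGFR is often amplified or overexpressed in squamous carcinoma and in glioblastoma.

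Total counts ran from 18800932 to 26514658 per library, so that 3 counts, used as a floor, corresponded to 0.113 to 0.160 CPM (the count scaled to the library total). The labels do not say that libraries of a group came from separate cultures, so the p-values measure the spread between these libraries, which may be technical. KYSE30 was processed as batch 1 and U138MG as batch 2 in the labels, and therefore line and batch cannot be told apart. The labelled cell types were checked against marker genes in the DMSO libraries. In KYSE30, 6 of 8 squamous markers reached 1 CPM, among them CDH1 with 514 CPM and TP63 with 98.2 CPM, but the basal keratin genes KRT5 and KRT14 had 0.0608 and 0.355 CPM. The libraries labelled U138MG also reached 1 CPM for 6 of 8 squamous markers, with KRT15 at 4861 CPM, KRT5 at 1470 CPM and TP63 at 276 CPM. Of 7 glial markers 4 reached 1 CPM, SOX2 at 38.9, PTPRZ1 at 4.49, GFAP at 2.36 and AQP4 at 2.14 CPM, while NES was at 0.556 CPM and S100B and OLIG2 were at 0 counts. Exons of GFAP overlap those of CCDC103 on the other strand over 18.4% of their length, and the libraries do not mark strand. CCDC103 had 84 to 153 counts per library, so the 46 to 56 GFAP counts with DMSO may hold its reads or miss some of their own. Of 5 mesenchymal markers 4 reached 1 CPM, among them SPARC at 713 and FN1 at 75.8 CPM, and VIM, a gene abundant in glioblastoma lines, was at 0.206 CPM. High squamous markers beside S100B and OLIG2 at 0 and VIM near 0 are unusual for the glioblastoma label, although SPARC, FN1 and SOX2 were present. FN1, SOX2 and PTPRZ1 were present in KYSE30 with DMSO as well, at 98.3, 99.4 and 7.98 CPM. SPARC was at 4.55 CPM there, and GFAP and AQP4 were at 0 counts. Those under the glioblastoma label are called the libraries labelled U138MG throughout. Under PTDSS1i the summed squamous markers of these libraries were 1773 to 1896 CPM, against 6921 to 7717 CPM with DMSO, the summed glial markers were 11.5 to 12.9 against 47.2 to 50.5 CPM, and the summed mesenchymal markers were 449 to 464 against 841 to 872 CPM. In KYSE30 the squamous sum was 1169 to 1201 CPM under PTDSS1i against 921 to 988 CPM with DMSO, the glial sum was 93.6 to 98.0 against 106 to 109 CPM, and the mesenchymal sum was 86.4 to 90.5 against 98.3 to 149 CPM. Single markers did not all follow these sums. In KYSE30 the squamous marker TP63 was lower (98.2 and 68.1 CPM with DMSO and PTDSS1i), while CDH1 was higher (514 and 703 CPM). FN1 was lower there (98.3 and 37.4 CPM), as was the mesenchymal sum, while VIM was higher (3.99 and 24.6 CPM). In the libraries labelled U138MG KRT15 (4861 and 458 CPM) and SOX2 (38.9 and 4.29 CPM) made up most of the lower sums of their lists, while EPCAM was higher (248 and 348 CPM). The part of these marker shifts in the results on the EGFR family was not tested.

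The members lie on 7 chromosomes of GRCh38 in the GENCODE annotation. EGFR spans chr7:55019021-55211628 on the plus strand, ERBB2 chr17:39687914-39730426 and ERBB3 chr12:56076799-56103505, both also on the plus strand. HBEGF lies at chr5:140332843-140346631, TGFA at chr2:70447280-70554193 and ERRFI1 at chr1:8004404-8026308, all on the minus strand. The other 4 ligand genes are neighbors on chromosome 4 within 486.2 kb: EPGN at chr4:74308473-74315307, EREG at chr4:74365143-74388751 and AREG at chr4:74445134-74455009 on the plus strand, and BTC at chr4:74744759-74794686 on the minus strand. The kit used for the libraries does not mark strand. Exons of EGFR overlap those of EGFR-AS1 over 186 bases, 1.49% of its exon length, and EGFR-AS1 had at most 14 counts in a library. ERBB2 overlaps MIEN1 over 571 bases, 5.53% of its exons, and PGAP3 over 194 bases, and ERRFI1 overlaps AL034417.4 over 155 bases, so a small share of the reads of these members is uncertain.

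The promoters of the 4 ligand genes with the largest responses to PTDSS1i in the libraries labelled U138MG, and of EGFR, the receptor gene with the largest response there, are shown so that the start regions of genes that moved in opposite directions can be read side by side. Each is the 250 bases before a RefSeq start site in GRCh38.p14, written 5′ to 3′ on the strand of the gene, at chr4:74444886-74445135 (plus) for AREG, chr4:74364895-74365144 (plus) for EREG, chr5:140346604-140346853 (minus) for HBEGF, chr4:74308220-74308469 (plus) for EPGN and chr7:55018767-55019016 (plus) for EGFR. Capitals mark a match to the cyclic AMP response element.
AREG: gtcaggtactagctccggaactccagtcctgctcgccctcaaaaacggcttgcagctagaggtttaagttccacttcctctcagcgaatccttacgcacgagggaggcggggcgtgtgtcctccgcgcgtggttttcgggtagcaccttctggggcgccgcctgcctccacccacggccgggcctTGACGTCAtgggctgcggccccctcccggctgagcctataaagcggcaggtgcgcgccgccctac
EREG: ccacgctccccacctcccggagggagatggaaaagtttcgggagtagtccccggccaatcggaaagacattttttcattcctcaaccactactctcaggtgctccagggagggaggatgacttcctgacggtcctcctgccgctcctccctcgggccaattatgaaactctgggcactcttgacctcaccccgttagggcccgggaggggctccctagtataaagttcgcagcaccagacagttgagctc
HBEGF: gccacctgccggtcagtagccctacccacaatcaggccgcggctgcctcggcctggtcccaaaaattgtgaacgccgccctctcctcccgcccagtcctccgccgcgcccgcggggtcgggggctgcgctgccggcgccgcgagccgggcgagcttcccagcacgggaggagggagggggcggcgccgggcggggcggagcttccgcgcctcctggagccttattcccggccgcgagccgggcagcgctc
EPGN: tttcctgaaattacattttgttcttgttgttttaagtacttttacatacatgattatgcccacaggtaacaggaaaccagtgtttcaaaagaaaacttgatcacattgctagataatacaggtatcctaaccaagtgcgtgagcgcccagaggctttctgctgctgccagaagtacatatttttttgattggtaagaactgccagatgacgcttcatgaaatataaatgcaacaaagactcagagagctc
EGFR: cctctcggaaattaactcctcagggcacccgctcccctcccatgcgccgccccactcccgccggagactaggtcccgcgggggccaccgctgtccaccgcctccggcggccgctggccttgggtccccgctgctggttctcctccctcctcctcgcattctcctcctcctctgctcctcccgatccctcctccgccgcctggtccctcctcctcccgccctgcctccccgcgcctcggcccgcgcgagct
Entries were matched by symbol for 9 of the 10 members, 11 entries in all, and ERBB3 was not among them. Both strands were searched for the AP-1 motif TGANTCA, the cyclic AMP response element TGACGTCA and the C/EBP-ATF composite TGATGNAA, which do not share a full match with one another. Of 35116 promoters of the same length, 6.57% hold the first, 1.65% the second and 3.14% the third. AREG holds the cyclic AMP response element 65 bases before its start. ERBB2 holds an AP-1 match 222 bases before its start, and a second, downstream entry of EGFR at chr7:55109589-55109838 holds AP-1 matches 232 and 136 bases before its start. The windows of EREG, HBEGF, EPGN, TGFA, BTC and ERRFI1 and the EGFR window printed above hold none of these letters. In base composition EPGN stood apart from the other printed promoters, with 38.0% G and C against 58.0% in EREG, 65.2% in AREG, 73.6% in EGFR and 76.4% in HBEGF. The median of all promoters was 58.0%, with a 5th to 95th percentile of 34.4% to 78.4%.

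PTDSS1i changed 9 of the 10 members in KYSE30 and all 10 in the libraries labelled U138MG by the test used. In KYSE30, the 3 receptors, 4 of 6 ligands and ERRFI1 were higher, EPGN was lower, and EREG did not pass. In the libraries labelled U138MG the 3 receptors and BTC were lower, and the other 5 ligands and ERRFI1 were higher. Calls rest on edgeR's quasi-likelihood test, with p-values adjusted by Benjamini and Hochberg over all genes tested in the line and a threshold of 0.05 on the adjusted p. In KYSE30 the 8 members called higher and the 1 called lower stand against a background of 30.1% of 16389 tested genes called higher and 32.0% called lower. The 6 members called higher and 4 called lower in the libraries labelled U138MG stand against 33.9% and 33.6% of 17666 genes. With a log2 fold change beyond 1 asked in addition, KYSE30 kept 1 member called higher (HBEGF) and 0 called lower, beside 6.40% and 7.04% of all tested genes. The same rule kept 5 members called higher (AREG, EREG, HBEGF, EPGN and ERRFI1) and 1 called lower (EGFR) in the libraries labelled U138MG, beside 8.19% and 11.6%. The DMSO and PTDSS1i values did not overlap for 9 of 10 members in KYSE30, where 66.3% of all tested genes did not, and for 10 of 10 in the libraries labelled U138MG, where 71.4% did not. The median log2 fold change of the members was 0.25 in KYSE30 and 1.16 in the libraries labelled U138MG, against -0.03 over all tested genes in each. The members were chosen with earlier results of these data known, so these counts and medians are descriptions and not a test of the set. In these bulk cultures fewer cells of a kind and less RNA per cell cannot be told apart.

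**Figure D1:**
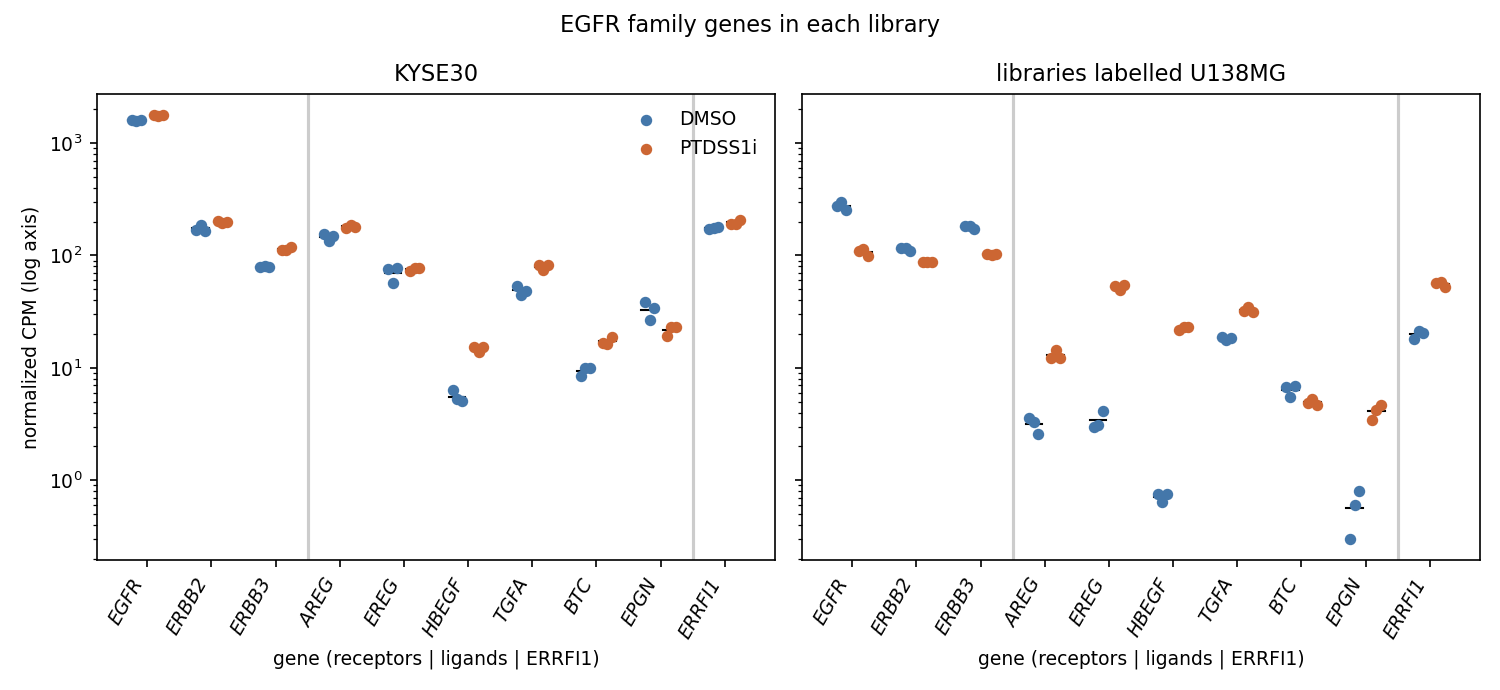
Normalized CPM on a log axis for the 10 members in each library of KYSE30 (left) and of the libraries labelled U138MG (right), with 3 points per treatment and a line at the mean. EGFR sits highest in KYSE30, between 1565 and 1789, and on the right the receptors are lower and 5 ligands are higher with PTDSS1i than with DMSO.

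EGFR, the receptor shared by these ligands, was slightly higher in KYSE30 and strongly lower in the libraries labelled U138MG. All values per library are given as normalized CPM, the CPM scaled further by TMM factors, for replicates 1 to 3, and errors of means are SD with n = 3. In KYSE30 EGFR had 1598, 1565 and 1622 with DMSO and 1789, 1746 and 1767 with PTDSS1i. Every PTDSS1i library lay above every DMSO library, but the step was small, 0.15 on the log2 scale with a standard error of 0.05 (adjusted p = 0.0178), or 1.11-fold. Errors of log2 fold changes are standard errors from here on. This call was lost with library-size scaling (log2 fold change 0.04, adjusted p = 0.382) and without PTDSS1i replicate 1 or 3 (adjusted p = 0.0696 and 0.0629). With the label U138MG, EGFR had 275.8, 299.3 and 255.0 with DMSO and 108.8, 114.5 and 99.9 with PTDSS1i. The groups were far apart relative to their spread, 276.7 ± 22.2 against 107.7 ± 7.35, and the log2 fold change was -1.36 ± 0.07 (adjusted p = 1.49e-06), which is 2.57-fold lower.

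ERBB2, the partner receptor, and ERBB3, the neuregulin receptor, followed the same pair of directions. ERBB2 had 170.2, 187.2 and 166.1 with DMSO and 202.4, 194.0 and 200.3 with PTDSS1i in KYSE30, a log2 fold change of 0.19 ± 0.05 (adjusted p = 0.00405). The lowest treated library was only slightly above the highest control library, and the call was lost with library-size scaling (log2 fold change 0.08, adjusted p = 0.176). ERBB2 had 116.1, 116.4 and 109.4 with DMSO and 88.2, 86.8 and 88.2 with PTDSS1i in the libraries labelled U138MG. The treated libraries were all lower, with a log2 fold change of -0.38 ± 0.04 (adjusted p = 1.99e-09). ERBB3 rose most of the receptors in KYSE30, from 78.5, 80.7 and 79.1 to 112.5, 110.8 and 118.0. Its controls lay close together and all treated libraries were well above them, with a log2 fold change of 0.52 ± 0.05 (adjusted p = 1.44e-08), or 1.43-fold. The opposite held in the libraries labelled U138MG, where ERBB3 fell from 181.8, 183.0 and 173.1 to 102.9, 101.0 and 103.8, a log2 fold change of -0.81 ± 0.04 (adjusted p = 2.09e-17), or 1.75-fold lower. The receptor median was thus 0.19 in KYSE30 and -0.81 in the libraries labelled U138MG on the log2 fold change scale.

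HBEGF, the heparin-binding ligand that signals to EGFR and ERBB4, rose in both lines, by more than any other member in each. In KYSE30 it had 6.30, 5.24 and 5.06 with DMSO and 15.4, 13.9 and 15.3 with PTDSS1i. No treated library came near the controls, and the log2 fold change was 1.43 ± 0.11 (adjusted p = 2.20e-10), or 2.69-fold. HBEGF in the libraries labelled U138MG was low with DMSO, at 0.749, 0.641 and 0.754 from 15, 15 and 17 counts, and had 21.9, 23.3 and 23.0 with PTDSS1i. This was a log2 fold change of 4.98 ± 0.14 (adjusted p = 2.01e-22), or 31.7-fold, with a control level that rests on few reads.

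EREG and AREG, a pair of ligands encoded next to each other, rose in the libraries labelled U138MG, whereas in KYSE30 AREG rose little and EREG did not pass the test. EREG (epiregulin), which activates EGFR and ERBB4, had 3.00, 3.08 and 4.17 with DMSO and 53.2, 49.5 and 54.8 with PTDSS1i in the libraries labelled U138MG. The log2 fold change of 3.94 ± 0.09 (adjusted p = 5.05e-24) corresponds to 15.3-fold. In KYSE30 EREG had 75.3, 56.5 and 78.1 with DMSO and 73.0, 77.4 and 77.5 with PTDSS1i. The groups overlapped, and the log2 fold change was 0.12 ± 0.11 (adjusted p = 0.407, 95% interval -0.15 to 0.38). Without DMSO replicate 2, the lowest library, it was -0.02. AREG (amphiregulin), an EGFR ligand, had 3.59, 3.29 and 2.57 with DMSO and 12.3, 14.5 and 12.3 with PTDSS1i in the libraries labelled U138MG, which gives a log2 fold change of 2.05 ± 0.14 (adjusted p = 9.26e-14). KYSE30 started far higher, at 156.8, 134.5 and 150.1 with DMSO, and had 177.3, 187.8 and 178.7 with PTDSS1i. The treated libraries were all above the controls, by a log2 fold change of 0.30 ± 0.06 (adjusted p = 9.22e-05), or 1.23-fold.

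TGFA (transforming growth factor alpha), a ligand of EGFR, rose by a similar amount in each line. It had 53.7, 44.6 and 48.4 with DMSO and 82.6, 73.7 and 81.5 with PTDSS1i in KYSE30. The libraries labelled U138MG had 19.0, 17.6 and 18.3 with DMSO and 32.3, 34.5 and 31.3 with PTDSS1i. The groups were separate in both lines, with log2 fold changes of 0.70 ± 0.07 (adjusted p = 1.02e-08) and 0.84 ± 0.07 (adjusted p = 1.70e-11).

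BTC (betacellulin), which binds EGFR and ERBB4, moved in opposite directions. In KYSE30 it rose from 8.41, 10.0 and 9.91 to 16.5, 16.5 and 18.8, a log2 fold change of 0.87 ± 0.10 (adjusted p = 8.74e-08). The libraries labelled U138MG had 6.69, 5.47 and 6.88 with DMSO and 4.91, 5.25 and 4.71 with PTDSS1i. The highest treated library was just under the lowest control, and the log2 fold change was -0.36 ± 0.14 (adjusted p = 0.0321, 95% interval -0.65 to -0.06). That call was the weakest among the members in these libraries: it was lost with DESeq2 (adjusted p = 0.0821), without a filter on low counts (adjusted p = 0.0825), and without DMSO replicate 1 or 3 or PTDSS1i replicate 1 or 3 (adjusted p from 0.0735 to 0.128).

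EPGN (epigen), an EGFR ligand, moved in opposite directions as well, but the other way round. In KYSE30 it had 38.5, 26.7 and 33.9 with DMSO and 19.2, 22.9 and 23.1 with PTDSS1i. It was the 1 member called lower there, with a log2 fold change of -0.61 ± 0.13 (adjusted p = 0.00286), and its controls were spread widely, 33.0 ± 5.92. EPGN in the libraries labelled U138MG had 0.300, 0.598 and 0.799 with DMSO, from 6, 14 and 18 counts, and 3.47, 4.24 and 4.67 with PTDSS1i. All treated libraries were well above the highest control, and the log2 fold change was 2.84 ± 0.28 (adjusted p = 4.47e-10).

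ERRFI1, the feedback inhibitor, was nearly level in KYSE30 and rose in the libraries labelled U138MG. KYSE30 had 173.0, 176.6 and 179.2 with DMSO and 192.2, 192.3 and 207.2 with PTDSS1i, a log2 fold change of 0.16 ± 0.05 (adjusted p = 0.00819). This small difference did not pass with library-size scaling (log2 fold change 0.06, adjusted p = 0.309) or without PTDSS1i replicate 3 (adjusted p = 0.0813). The libraries labelled U138MG had 18.1, 21.3 and 20.5 with DMSO and 56.9, 58.0 and 52.4 with PTDSS1i. The log2 fold change there was 1.48 ± 0.06 (adjusted p = 6.93e-18), or 2.78-fold.

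**Figure D2:**
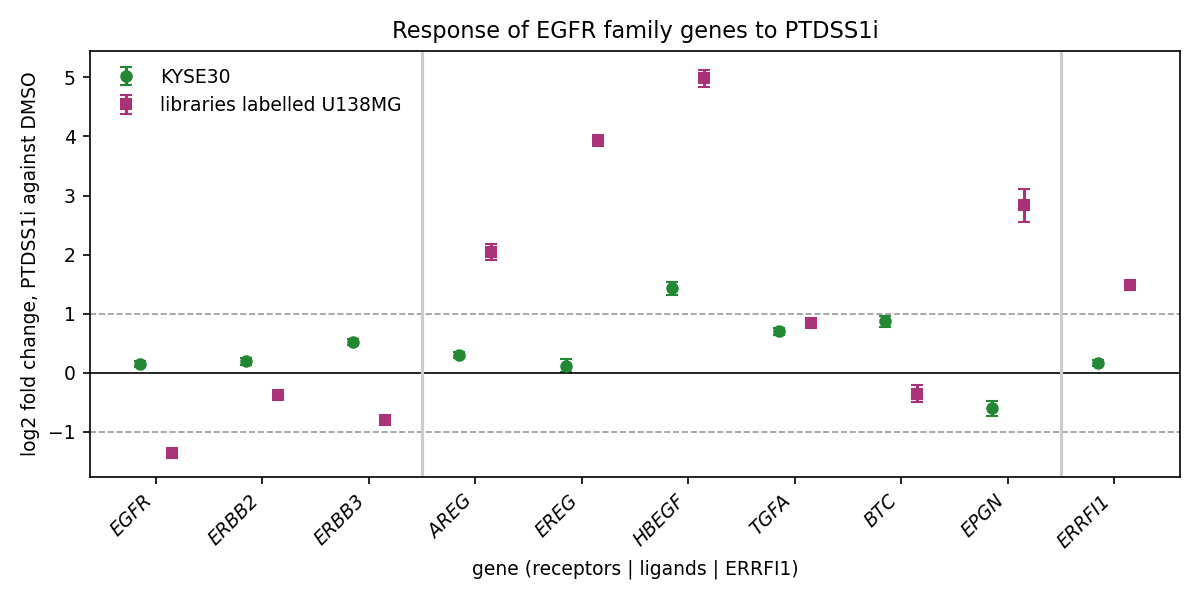
Log2 fold change of each member, PTDSS1i against DMSO, in KYSE30 (green circles) and in the libraries labelled U138MG (purple squares), with bars of 1 standard error from edgeR and dashed lines at 1 and -1. The 3 receptors lie above 0 in KYSE30 and below 0 in the libraries labelled U138MG, and HBEGF has the highest value in each, 1.43 and 4.98.

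The responses of the lines differed for 9 of the 10 members. The difference itself was tested as the interaction of line and treatment over the 12 libraries, in which 49.9% of 18405 genes passed at an adjusted p under 0.05. The receptors responded lower in the libraries labelled U138MG, by a log2 difference of -1.55 ± 0.07 for EGFR (adjusted p = 1.96e-17), -0.61 ± 0.07 for ERBB2 (adjusted p = 2.59e-09) and -1.36 ± 0.06 for ERBB3 (adjusted p = 6.71e-18). Among the ligands the response was higher there for EREG by 3.78 ± 0.20 (adjusted p = 1.82e-08), HBEGF by 3.52 ± 0.20 (adjusted p = 1.39e-15), EPGN by 3.40 ± 0.33 (adjusted p = 2.12e-07) and AREG by 1.71 ± 0.13 (adjusted p = 2.07e-11). BTC responded lower, with a difference of -1.26 ± 0.16 (adjusted p = 8.48e-08), and ERRFI1 higher, with 1.27 ± 0.08 (adjusted p = 7.35e-15). TGFA was the 1 member that did not pass, with a difference of 0.10 ± 0.10 (adjusted p = 0.398, 95% interval -0.09 to 0.30). Since each line was a batch of its own, these differences are between the sets of libraries and not of the cell lines alone.

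Levels of different genes were compared as normalized CPM per kilobase of exon within each group. In KYSE30 with DMSO the order was EGFR (127 CPM per kb), AREG (89.3), ERRFI1 (42.1), EPGN (18.2), ERBB2 (16.9), EREG (12.2), TGFA (9.85), ERBB3 (8.79), BTC (3.36) and HBEGF (1.83). The ranges over 3 libraries overlapped for EPGN and ERBB2 and for EREG and TGFA, so by this length these neighbors did not differ beyond their spread. Per kb of the longest coding transcript, ERBB2 (36.4) was above EPGN (27.6) and ERBB3 (13.4) above TGFA (11.3), each with separate ranges. With PTDSS1i EGFR (141 CPM per kb), AREG (110) and ERRFI1 (47.1) stayed in front and BTC (6.13) and HBEGF (4.92) at the end. TGFA (16.0) came before EREG (13.3), and EPGN (12.0) came after ERBB3 (12.6). The ranges of EREG, ERBB3 and EPGN overlapped from neighbor to neighbor. By the coding transcript length the order was ERBB3 (19.2), TGFA (18.4), EPGN (18.2) and EREG (16.4), also with ranges that overlapped from neighbor to neighbor.

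The order was different in the libraries labelled U138MG. With DMSO the receptors came first, EGFR at 22.1 CPM per kb, ERBB3 at 19.8 and ERBB2 at 11.0, followed by ERRFI1 at 4.77, TGFA at 3.68, BTC at 2.25, AREG at 1.91, EREG at 0.597, EPGN at 0.312 and HBEGF at 0.237. Only BTC with AREG and EPGN with HBEGF had overlapping ranges. With PTDSS1i ERRFI1 was first at 13.3 CPM per kb and ERBB3 second at 11.3, and EREG (9.18), EGFR (8.61), ERBB2 (8.50), AREG (7.91) and HBEGF (7.53) followed with ranges that overlapped from each to the next. TGFA (6.60), EPGN (2.27) and BTC (1.76) closed the order. The order at the top depended on the length used. Per kb of the longest coding transcript, ERBB3 (30.3) came before EGFR (28.2) with DMSO, and ERBB2 (18.3) before ERRFI1 (17.96) and ERBB3 (17.3) with PTDSS1i, with overlapping ranges for each of these neighbors. The levels of KYSE30 and of the libraries labelled U138MG come from tables scaled separately and are not compared with a test.

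The makeup of the ligand transcripts was taken as the share of each in the summed CPM per kb of the 6 ligands. In KYSE30 AREG made up 66.3% ± 1.23 with DMSO and 67.8% ± 1.16 with PTDSS1i, a difference within the spread of the libraries. The share of EPGN was 13.4% ± 1.18 and then 7.37% ± 0.609, that of TGFA 7.31% ± 0.238 and then 9.85% ± 0.785, and that of HBEGF 1.36% ± 0.131 and then 3.04% ± 0.232. The summed level was 145.4, 120.5 and 138.4 CPM per kb in the DMSO libraries and 158.6, 165.4 and 162.8 in the PTDSS1i libraries. DMSO replicate 2 was the lowest of these 6, and it was also the lowest for AREG, EREG, TGFA and for EPGN among the controls.

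With DMSO, the libraries labelled U138MG held mainly TGFA (40.9% ± 0.459), BTC (25.0% ± 2.10) and AREG (21.3% ± 3.59). With PTDSS1i EREG was the largest share (26.1% ± 1.97, from 6.64% ± 1.23), before AREG (22.4% ± 1.64), HBEGF (21.4% ± 0.235, from 2.63% ± 0.135) and TGFA (18.7% ± 0.676). EPGN held 6.44% ± 0.861 and BTC 4.99% ± 0.211. Their summed level was 9.32, 8.56 and 9.11 CPM per kb with DMSO and 34.2, 36.4 and 35.2 with PTDSS1i, so every treated library was above every control. In the treated libraries it was still below the lowest KYSE30 library. That comparison was not tested, since the tables of the lines were scaled separately and list different numbers of genes.

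**Figure D3:**
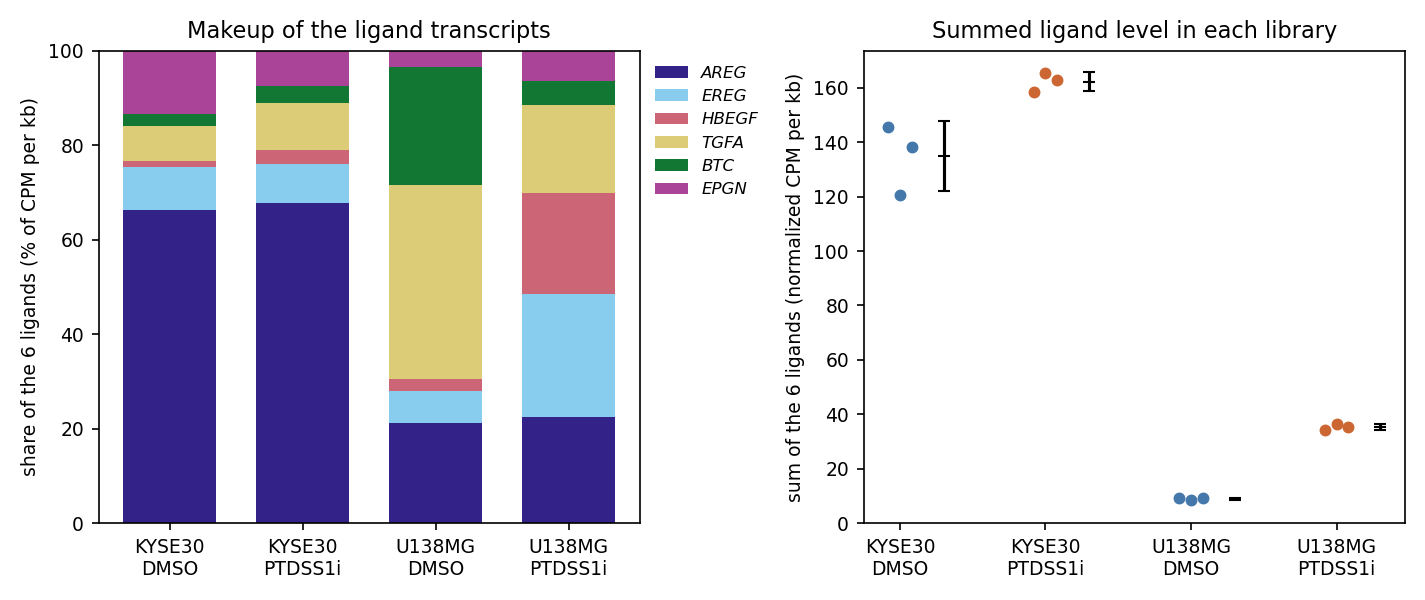
Left, mean share of each ligand in the summed CPM per kb of the 6 ligands (percent, bars of 3 libraries per group). Right, the summed ligand level in normalized CPM per kb for each library, with mean and SD beside the points. AREG fills 66.3% and 67.8% of the KYSE30 bars, and in the libraries labelled U138MG HBEGF goes from 2.63% to 21.4%.

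The other genes of the route were taken from lists put together with earlier results of these data known, and are given as counts by the same test. They are read against the share of all tested genes called higher and lower, 30.1% and 32.0% in KYSE30 and 33.9% and 33.6% in the libraries labelled U138MG. Of 6 other family genes, the second receptor for neuregulins ERBB4 was at 0 to 4 counts in KYSE30 and did not pass in the libraries labelled U138MG (log2 fold change -0.87, adjusted p = 0.108). In KYSE30 2 were tested, of which NRG1, the gene of the ERBB3 ligand neuregulin 1, was higher (log2 fold change 0.72, adjusted p = 3.03e-05) and NRG4, another neuregulin gene, was lower (-0.83, adjusted p = 0.000342). Exons of NRG4 overlap those of FBXO22 on the other strand over 38.1% of their length, and FBXO22 was lower as well in KYSE30 (-0.43, adjusted p = 1.06e-05). How reads of a shared stretch were counted is not given. The NRG4 counts, 38 to 110 per library there, may therefore hold reads of FBXO22 or miss some of their own. Among the libraries labelled U138MG 5 were tested, 2 higher and 2 lower, with NRG1 at 1.53 (adjusted p = 1.71e-17) and EGF, the founding ligand of EGFR, at -0.73 (adjusted p = 9.24e-05). The other gene called higher was NRG2 (1.48, adjusted p = 0.000112), and the other called lower was NRG4 (-0.60, adjusted p = 0.00287). The ERBB3 receptor and its ligand gene NRG1 thus both rose in KYSE30, whereas ERBB3 fell and NRG1 rose in the libraries labelled U138MG.

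Genes for ligand release and trafficking moved both ways. Of 12 tested, 6 were higher and 2 lower in KYSE30 (median log2 fold change 0.20), beside 30.1% and 32.0% of all genes, and 8 were higher and 2 lower in the libraries labelled U138MG (median 0.45), beside 33.9% and 33.6%. Among those with a mean of at least 5 CPM, the largest rises in KYSE30 were those of ADAM19, a metalloprotease (0.88, adjusted p = 1.44e-10), and FRMD8, which stabilizes the sheddase complex (0.49, adjusted p = 1.17e-07). RHBDF2, the iRhom2 cofactor of the sheddase ADAM17, was lower in KYSE30 (-1.03, adjusted p = 9.84e-08) and higher in the libraries labelled U138MG (0.97, adjusted p = 9.74e-13). ADAM12, another metalloprotease, rose from 2.25 ± 0.315 to 5.79 ± 0.887 normalized CPM in KYSE30 (1.36, adjusted p = 2.89e-07). In the libraries labelled U138MG it rose from 6.32 ± 0.805 to 20.5 ± 0.512 normalized CPM (1.69, adjusted p = 5.63e-15), and RHBDL2, a membrane protease, was lower (-1.09, adjusted p = 1.98e-11). ADAM15 was lower in both, at -0.48 (adjusted p = 5.24e-08) and -0.24 (adjusted p = 4.17e-07).

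Receptor adaptors, which link the receptors to the ERK and PI3K routes, moved both ways. Of 15 tested in KYSE30 9 were higher and 4 lower (median log2 fold change 0.15), and of 16 in the libraries labelled U138MG 8 were higher and 4 lower (median 0.15). The 4 called lower in each were near or below the 32.0% and 33.6% of all genes called lower, and the shares called higher were above 30.1% and 33.9%. These counts moved with the scaling, since library size alone left 4 and 5 called higher. In KYSE30 STAT3, a transcription factor that docks at the receptors, was higher (0.81, adjusted p = 8.02e-12), as was the RAS exchange factor SOS2 (0.55, adjusted p = 3.87e-08). The phospholipase PLCG1 (-1.13, adjusted p = 9.26e-11) and the exchange factor VAV2 (-0.54, adjusted p = 8.07e-09) were lower, as were the kinase gene SRC (-0.40, adjusted p = 4.16e-06) and PIK3R1 (-0.35, adjusted p = 0.00111). GAB2, a docking protein, rose in KYSE30 from 0.938 ± 0.0362 to 2.71 ± 0.224 normalized CPM (1.52, adjusted p = 2.28e-06). In the libraries labelled U138MG GAB2 rose from 4.20 ± 0.835 to 18.8 ± 2.36 normalized CPM (2.16, adjusted p = 4.97e-13) and SHC1 rose by 0.90 (adjusted p = 1.13e-16). The PI3K regulatory subunits PIK3R1 (-1.14, adjusted p = 4.59e-14) and PIK3R2 (-0.32, adjusted p = 2.75e-08) were lower there, as were SOS1 (-0.25, adjusted p = 3.31e-05) and PLCG1 (-0.24, adjusted p = 2.99e-05). The PIK3R2 value is uncertain, since 87.25% of its exon length is shared with AC007192.1 on the same strand (20 to 96 counts per library) and since PIK3R2 itself had 2224 to 2921 counts in these libraries but 3 to 7 in KYSE30.

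Among the receptor inhibitors and turnover genes, 12 of 18 tested were higher and 0 lower in KYSE30 by edgeR's test (median log2 fold change 0.18). With library-size scaling these counts were 6 and 1, and the 6 are then near the 30.1% of all genes called higher. Of 19 in the libraries labelled U138MG 11 were higher and 5 lower (median 0.17), beside 33.9% and 33.6%. There, library-size scaling gave 8 called higher and 8 called lower. The ubiquitin ligase gene CBLB (0.62, adjusted p = 4.16e-05) and SH3KBP1, an adaptor of receptor uptake (0.61, adjusted p = 1.82e-08), rose most in KYSE30. UBASH3B, which opposes receptor turnover by CBL (1.48, adjusted p = 1.16e-17), and SH3KBP1 (0.89, adjusted p = 8.76e-15) rose most in the libraries labelled U138MG. LRIG1, which promotes the loss of EGFR family receptors and shares 12.9% of its exon length with SLC25A26, was lower there (-0.58, adjusted p = 2.26e-11), as was its relative LRIG3 (-0.94, adjusted p = 6.64e-10). The other genes called lower there were EPN1 (-0.34), PTPRK (-0.27) and USP8 (-0.11, adjusted p = 0.0398).

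Most genes on the list of downstream transcription targets rose, and ERK signaling itself was not measured. In KYSE30 17 of 23 were higher and 3 lower (median log2 fold change 0.55), beside 30.1% and 32.0% of all genes, and 6 were higher with a log2 fold change over 1, beside 6.40%. Of 24 in the libraries labelled U138MG 20 were higher and 2 lower (median 2.17), beside 33.9% and 33.6%, and 17 were higher with a log2 fold change over 1, beside 8.19%. FOSB, an AP-1 subunit, rose from 2.89 ± 0.168 to 15.9 ± 1.26 normalized CPM in KYSE30 (2.46, adjusted p = 8.99e-14), and DUSP5, a phosphatase of ERK, from 46.9 ± 4.42 to 139.8 ± 2.37 (1.57, adjusted p = 2.90e-15). ETV5, a transcription factor, had 5 to 8 counts in the DMSO libraries labelled U138MG and rose from 0.271 ± 0.0627 to 33.8 ± 1.83 normalized CPM (6.93, adjusted p = 8.24e-25). SPRY4, an inhibitor of receptor signaling, had 1 to 12 counts and rose from 0.258 ± 0.250 to 16.6 ± 1.72 (5.98, adjusted p = 6.78e-10), so that both folds rest on few control reads. The immediate early gene EGR1 was lower in both, at -0.37 in KYSE30 (adjusted p = 0.000945) and -0.32 in the libraries labelled U138MG (adjusted p = 4.26e-05), and SPRY1 was lower in KYSE30 (-0.26, adjusted p = 0.000793). The remaining genes called lower were SPRED1 in KYSE30 (-0.20, adjusted p = 0.0389) and EGR2 in the libraries labelled U138MG (-1.29, adjusted p = 0.00518).

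**Figure D4:**
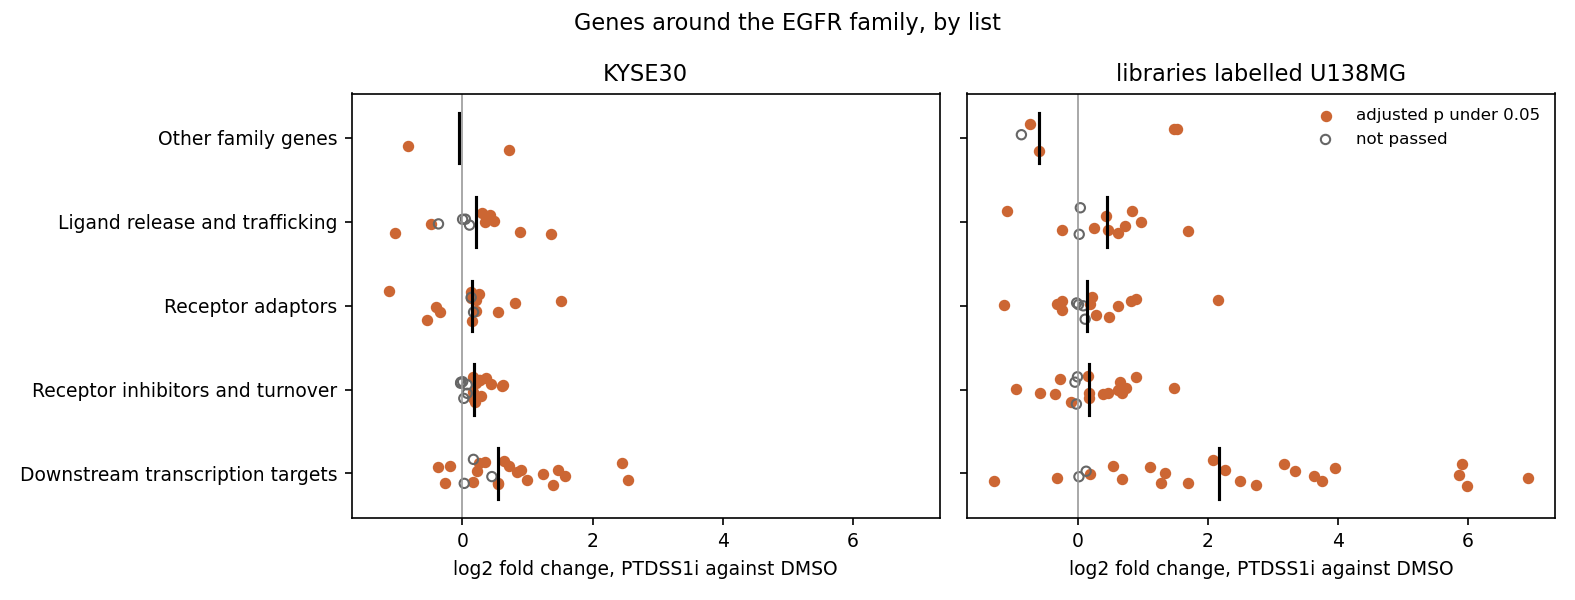
Log2 fold change, PTDSS1i against DMSO, of each tested gene of 5 lists around the EGFR family in KYSE30 (left) and in the libraries labelled U138MG (right). Filled points have an adjusted p under 0.05, open points do not, and black lines mark the list medians, which for the downstream targets are 0.55 and 2.17.

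Genes whose pattern was most like that of a receptor were ranked by Pearson correlation of log2 CPM over the 12 libraries, after subtracting the mean of each line, among 10272 genes. The points share libraries and treatments, so the values are descriptions. For EGFR the nearest were SH2B1 (r = 0.996), MTMR1 (0.994) and OLFML2A (0.994), with log2 fold changes of -0.95, -0.69 and -1.58 in the libraries labelled U138MG and 0.09, 0.02 and 0.26 in KYSE30. ERBB2 was most like PCDH7 (r = 0.988), MTFR1L (0.984) and BMF (0.983). ERBB3 was most like NYNRIN (r = 0.996), NABP1 (0.993) and AHNAK (0.992), which had log2 fold changes of 0.97, 0.96 and 0.73 in KYSE30 and -1.47, -1.68 and -1.01 in the libraries labelled U138MG.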

How the data were processed

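Poly-A RNA libraries were prepared with the TruSeq RNA kit v2. The authors deposited 1 table of raw counts per line, not normalized. Per the labels, Trimmomatic, STAR and featureCounts were used with hg38. Their versions, the gene annotation and any strand setting are not given in the sources used here. The labels give the KYSE30 medium for all cultures, whereas the study's methods give another medium for U138MG.

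Each sample's group and replicate number came from its label. Genes were kept by filterByExpr of edgeR 4.0.16 (minimum count 10, minimum total 15) in R 4.3.3 with TMM scaling. Treated and control libraries of a line were compared by the robust quasi-likelihood test, p-values were adjusted by Benjamini and Hochberg, and the lines were compared by the interaction over the 12 libraries. The tests were checked on simulated data. Alternatives used library size alone, upper-quartile scaling, DESeq2 1.42.0, other filters, a replicate block, both lines in 1 fit, no robust estimation and each library left out. The biological coefficient of variation was 0.0549 in KYSE30 and 0.0452 in the libraries labelled U138MG, and replicates differed by more than sampling noise (chi-square per degree of freedom 2.29 to 7.44). The count floor covers counting error only. Positions, exon overlaps and exon lengths came from the GENCODE annotation of GRCh38, which may differ from that of the authors, and promoters from RefSeq. Identifiers were joined without version.

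The members and gene lists were chosen with earlier results of these data known. All members were named. From each list and line at most 2 genes in each direction were named, those with the largest changes among genes past the threshold whose mean reached 5 CPM and whose treatments did not overlap, and for each receptor the 3 genes most like it. ERBB4, NRG2, NRG4, SRC, SOS1, EPN1, PTPRK, USP8, SPRED1 and EGR2, and ADAM12, GAB2, PIK3R1 and PLCG1 in the line where the rule did not pick them, were named after their values were seen.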

Additional observations from a re-analysis of the deposited data

Results flagged for a closer look

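The response to PTDSS1i differed between KYSE30 and the libraries labelled U138MG by the interaction test for 9 members. As the log2 response of the libraries labelled U138MG minus that of KYSE30, the difference was -1.55 for EGFR, -0.61 for ERBB2, -1.36 for ERBB3 and -1.26 for BTC. It was 1.71 for AREG, 3.78 for EREG, 3.52 for HBEGF, 3.40 for EPGN and 1.27 for ERRFI1. EGFR, ERBB2, ERBB3 and BTC were called higher in KYSE30 and lower in the libraries labelled U138MG, and EPGN was called the other way round. Line and batch cannot be told apart in this design, and 49.9% of all genes tested passed the same test.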

How the results depend on the processing

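Against TMM, library size alone moved the median log2 fold change of all genes by -0.11 in KYSE30 and -0.15 in the libraries labelled U138MG. This left 5 rather than 8 members called higher in KYSE30 (EGFR, ERBB2 and ERRFI1 were lost). It also left 4 and 5 receptor adaptors called higher in the respective lines. Of the receptor inhibitors and turnover genes it left 6 higher and 1 lower in KYSE30. In the libraries labelled U138MG it left 8 of them higher and 8 lower. Asking for an absolute log2 fold change over 1 left 1 member higher and 0 lower in KYSE30 and 1 lower in the libraries labelled U138MG, since fewer genes can pass. Leaving out each library gave 6 to 8 members higher and 1 lower in KYSE30, 6 higher and 3 to 4 lower in the libraries labelled U138MG, and 9 members that differed between the lines. Asking for 10 counts in every library left 5 members higher in the libraries labelled U138MG and 8 that differed between the lines. EPGN, with 6 counts in DMSO replicate 1 of these libraries, was not tested under that filter. The EREG log2 fold change in KYSE30 ranged from -0.0207 (reversed, without KYSE30 DMSO replicate 2) to 0.201 when 1 library was left out, and the TGFA difference between the lines reversed to -0.00611 under upper-quartile scaling. Neither passed the test in any setting, and the cause was not tested. The replicate numbers were not taken to pair libraries, since the labels do not say that a number marks a shared culture or day. Deviations of same-numbered libraries from their group means had correlations under 0.1 (0.0754, 0.0721 and 0.0204 in KYSE30, and 0.00881, -0.00288 and 0.0484 in the libraries labelled U138MG). In KYSE30 every library correlated best with its own number, and whether the libraries were paired is not known. With the replicate block the counts of members were 8 higher and 1 lower in KYSE30, 6 higher and 4 lower in the libraries labelled U138MG, and 9 that differed, the same as without it. With the longest coding transcript as length, 41 to 43 of 45 pairs of members kept their order in a group, and ERBB2 rather than ERRFI1 and ERBB3 rather than EGFR came first in the treated and control libraries labelled U138MG. Depth limits HBEGF, EPGN, ETV5 and SPRY4 in the DMSO libraries labelled U138MG, which had at most 18 counts each.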

Other observations

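The tested neighbors of the ligand genes on chromosome 4, within 500 kb on either side, were read beside them. In the libraries labelled U138MG the chemokine genes CXCL1, CXCL2 and CXCL3 rose with log2 fold changes of 2.72 (adjusted p = 6.72e-19), 3.28 (adjusted p = 3.54e-13) and 1.10 (adjusted p = 0.00474) in edgeR's test. In the same libraries MTHFD2L, which lies between the chemokine genes and EPGN, was at 0.21 (adjusted p = 0.137), and PARM1, beyond BTC, was at 0.07 (adjusted p = 0.481), so neither passed. In KYSE30 CXCL1 and CXCL2 were listed but under the filter on low counts, CXCL3 was at 0.17 (adjusted p = 0.619), MTHFD2L fell by 0.43 on the log2 scale (adjusted p = 8.05e-05), and PARM1 rose by 0.59 (adjusted p = 0.00193). These genes were chosen by position, after the values of the ligands were seen.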
